A study of Mus musculus with 4 samples.

Results

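The genes described here are ligands and receptors of the tumour necrosis factor (TNF) superfamily, other than TNF, RANKL and their receptors. They were chosen by symbol: every gene whose symbol starts with Tnfsf or Tnfrsf, together with Cd40, Cd40lg, Cd27, Cd70, Fas, Fasl, Lta, Ltb, Ltbr and Ngfr, and without Tnfsf11, Tnfrsf11a, Tnfrsf11b, Tnfrsf1a and Tnfrsf1b. The rule found 34 genes, 13 ligands and 21 receptors, among the 22180 genes measured, and each of the 34 had a probe set of its own. Their expression was compared between arthritic and nonarthritic mouse synovium, the tissue that lines the joint.

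Ligands of this superfamily are mostly anchored in the cell membrane and act on receptors of neighbouring cells. The receptors recruit TRAF adaptor proteins, which activate NF-kappa-B, and receptors with a death domain can start caspases instead. Family members control T cell costimulation, B cell survival, the building of lymphoid tissue and cell death, and several of them are made by stromal cells of inflamed joints as well as by leukocytes.

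The arthritic group was 2 pools of synovium, each from 10 mice, taken on day 10, which the labels call peak inflammation. These male C57BL/6J mice, aged 12 weeks, had been given 150 microlitres of K/BxN serum into the peritoneum on day 0, day 2 and day 7; such serum carries autoantibodies that set off joint inflammation. The nonarthritic group was 2 pools, each from 3 mice of the same strain, sex and age, labelled day 0, which received saline according to the protocols, although their serum label also reads K/BxN. Each pool was hybridised to its own array, so the spread between pools is not the spread between mice. Arthritis, labelled day and pool size change together and cannot be told apart. Tissue came from around the ankle joint, and values are log2 signals normalised by the authors.

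Cell type markers placed the tissue, and the signals of several marker lists differed between groups. All 9 synovial fibroblast markers read far above the signals of olfactory receptor genes, which serve here as a measure of background. All 8 neutrophil markers rose: their summed linear signal was 11870 to 13573 in arthritic pools and 1277 to 1739 in nonarthritic pools. All 8 skeletal muscle markers fell, with sums of 3484 to 4829 in arthritic and 29356 to 38243 in nonarthritic pools, and all 6 adipocyte markers fell, with 4175 to 6280 in arthritic and 20480 to 20931 in nonarthritic pools. Of the other lists, 3 of 8 macrophage, 1 of 6 dendritic cell and 5 of 9 fibroblast markers rose. The 7 NK cell markers did not pass, with log2 fold changes from -0.39 to 0.05. Signals of 4 of these 7 lay below the 95th percentile of olfactory receptor genes in both groups. In bulk tissue, a change in the number of cells of a type and a change of RNA per cell cannot be told apart.

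Of the 34 genes, 7 rose and 3 fell in arthritic synovium at a limma adjusted p under 0.05, corrected over all 22180 genes. Those that rose were the decoy receptor Tnfrsf23, the ligands Tnfsf14, Tnfsf15 and Ltb, and the receptors Tnfrsf10b, Tnfrsf9 and Tnfrsf14. Those that fell were the B cell factor Tnfsf13b and the receptors Tnfrsf17 and Tnfrsf19. The share called was 29.4% of the family, against 15.3% of all genes. Below the background percentiles in both groups were 8 of the 34 members and 7629 of the 22180 genes. Rises made up 20.6% of the family against 8.72% of all genes, and falls 8.82% against 6.62%. The pools of the groups did not overlap in 22 of the 34 genes, or 64.7%, against 56.4% of all genes. The median log2 fold change was 0.21 over the family and 0.005 over all genes. By kind, 3 of 13 ligands rose and 1 fell, and 4 of 21 receptors rose and 2 fell. The calls rest on all 4 arrays: 2 members rose without arthritic pool 1 and 0 without arthritic pool 2, and 3 rose without nonarthritic pool 1 and 1 without nonarthritic pool 2. In the fit with 0 rises by limma's adjusted p, 10 members had a positive change with an unadjusted p under 0.05. None of the 3 falls passed in any of these 4 fits, in which 3 or 4 members had a negative change with an unadjusted p under 0.05.

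**Figure D1:**
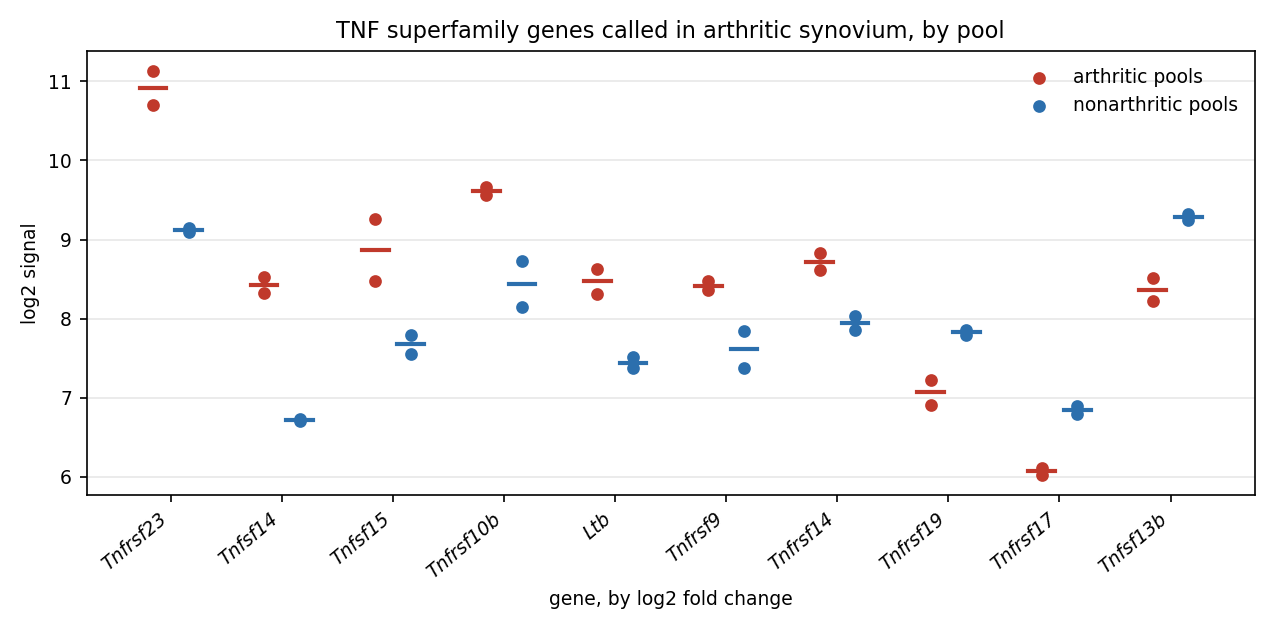
Log2 signal of the 10 called genes on each array, with arthritic pools to the left of nonarthritic pools for each gene and a bar at each mean of 2 pools. The pools of the groups do not overlap for any of the 10 genes; heights of different genes come from different probe sets and are not comparable.

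The LIGHT and lymphotoxin group showed rises in 2 of its 3 ligands and 1 of its 2 receptors. LIGHT, encoded by Tnfsf14, and the heterotrimers of Ltb and Lta signal through the lymphotoxin beta receptor, Ltbr, on stromal cells, and LIGHT also binds HVEM, the product of Tnfrsf14, on leukocytes. Tnfsf14 read 8.32 and 8.53 in the arthritic pools, against 6.71 and 6.73 in the nonarthritic pools. The groups stood far apart and the pools within each were close. Its measured log2 fold change was 1.71 ± 0.16 (SE; adjusted p = 0.000543). The nonarthritic signal lay below 7.08, the 95th percentile of olfactory receptor genes in that group, and against that level Tnfsf14 was at least 2.55-fold higher. The call was lost without arthritic pool 2 (adjusted p = 0.0557).

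Ltb, which encodes the membrane anchor of the lymphotoxin heterotrimer, read 8.31 and 8.63 in arthritic synovium and 7.51 and 7.38 in nonarthritic synovium. Each arthritic pool was above each nonarthritic pool, and the gene rose 2.03-fold (log2 fold change 1.03 ± 0.18, adjusted p = 0.00709). Its partner Lta, the soluble lymphotoxin, read 7.06 and 7.34 in arthritic pools, against 7.00 and 7.20 in nonarthritic pools, which overlap. Lta had a log2 fold change of 0.10 ± 0.18 (limma adjusted p = 0.77). Its nonarthritic mean, 7.10, was barely above the background percentile of 7.08. Tnfrsf14 read 8.83 and 8.61 in arthritic pools and 8.04 and 7.86 in nonarthritic pools, a 1.71-fold rise (log2 fold change 0.77 ± 0.17, adjusted p = 0.0193). Ltbr, the shared receptor, overlapped between groups, at 10.75 and 10.53 in arthritic pools and 10.63 and 10.35 in nonarthritic pools. The 95% interval of its log2 fold change was -0.26 to 0.56. LIGHT and HVEM were thus the only ligand and receptor among the 18 pairs compared that both passed upward. Leaving out any of the 4 pools ended the calls of Ltb (adjusted p 0.0602 to 0.125) and Tnfrsf14 (0.0793 to 0.178).

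Activated T cells are known to make Tnfsf14, and lymphocytes are a main known source of Ltb. Beside the rise of neutrophil markers given above, 1 of 8 T cell markers rose: Cd4, which mouse macrophages can also carry. Its log2 fold change was 1.74. Of the others none passed: Cd3d, Cd3e and Cd3g had 0.22, 0.26 and 0.45. Cd2 and Cd28, the only 2 with negative changes, had -0.10 and -0.36. Signals of 3 of the 8, Cd3d and Cd28 among them, were below the background percentiles in both groups. The summed T cell signal was 1479 to 1654 in arthritic pools and 1096 to 1097 in nonarthritic pools, and without Cd4 it was 1080 to 1105 in arthritic and 941 to 969 in nonarthritic pools. The part of these cells in the rises was not tested.

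The windows shown next are the 250 bases before a RefSeq start (GRCm38.p6) of called genes in which letters of the NF-kappa-B consensus or of the AP-1 motif TGANTCA were found on either strand, since both factors are known to act downstream of inflammatory signals. Capitals mark the matches.
Ltb, chr17:35194257-35194506, plus strand: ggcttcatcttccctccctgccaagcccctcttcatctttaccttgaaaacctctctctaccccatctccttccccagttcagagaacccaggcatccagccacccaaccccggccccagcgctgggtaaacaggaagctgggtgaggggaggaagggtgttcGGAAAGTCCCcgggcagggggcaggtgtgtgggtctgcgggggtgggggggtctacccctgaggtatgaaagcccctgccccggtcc
Tnfsf14, chr17:57194182-57194431, minus strand: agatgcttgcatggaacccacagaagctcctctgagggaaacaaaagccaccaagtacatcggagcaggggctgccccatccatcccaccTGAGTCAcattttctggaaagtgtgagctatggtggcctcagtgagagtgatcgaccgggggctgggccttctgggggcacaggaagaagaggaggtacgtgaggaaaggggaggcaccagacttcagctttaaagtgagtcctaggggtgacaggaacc
Tnfrsf9, chr4:150927749-150927998, plus strand: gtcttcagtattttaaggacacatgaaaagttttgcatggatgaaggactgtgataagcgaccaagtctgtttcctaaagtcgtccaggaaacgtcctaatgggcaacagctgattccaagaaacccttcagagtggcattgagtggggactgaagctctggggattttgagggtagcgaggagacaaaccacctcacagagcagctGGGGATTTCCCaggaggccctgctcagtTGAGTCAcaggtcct
Tnfsf13b, chr8:10006383-10006632, plus strand: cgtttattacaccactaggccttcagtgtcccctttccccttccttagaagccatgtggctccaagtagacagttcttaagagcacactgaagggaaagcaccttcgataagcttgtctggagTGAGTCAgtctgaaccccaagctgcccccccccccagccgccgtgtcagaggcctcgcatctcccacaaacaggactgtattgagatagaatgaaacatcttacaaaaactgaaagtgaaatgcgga

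The NF-kappa-B match of Ltb lies 87 to 78 bases before the start, on the minus strand. In the Tnfrsf9 window, which belongs to 1 of its 2 RefSeq starts, overlapping NF-kappa-B matches span 43 to 33 bases before the start and an AP-1 match spans 15 to 9. The AP-1 match of Tnfsf14, which rose, lies 160 to 154 bases before the start, and the match in the window of Tnfsf13b, which fell, lies 127 to 121 before 1 of its 2 starts. RefSeq windows were matched for 26 of the 34 genes and for 9 of the 10 called genes, 30 windows in all. The NF-kappa-B consensus was found in 3 of those 30 windows and in 3.9% of all 32851 windows; the third gene was Tnfrsf8. AP-1 letters were found in 5 of the 30, also for Fas and Tnfrsf8, and in 6.75% of all windows. A match describes the sequence and does not show that a factor bound there.

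In the TRAIL group 2 receptors rose, and the ligand did not pass. TRAIL, encoded by Tnfsf10, triggers death through Tnfrsf10b, the mouse TRAIL death receptor, and mice carry the decoy receptors Tnfrsf22 and Tnfrsf23, which bind TRAIL without signalling death. Tnfrsf23 had the highest log2 fold change of the family: it read 10.70 and 11.13 in arthritic pools, against 9.14 and 9.09 in nonarthritic pools. That is a 3.48-fold rise (log2 fold change 1.80 ± 0.19, adjusted p = 0.000791), and the lowest arthritic pool exceeded the highest nonarthritic pool by 1.56. Tnfrsf10b read 9.66 and 9.56 in arthritic pools and 8.73 and 8.15 in nonarthritic pools, a 2.25-fold rise (log2 fold change 1.17 ± 0.21, adjusted p = 0.00902). Its arthritic pools were close together, while the nonarthritic pools were 0.58 apart.

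Tnfsf10 itself read 8.94 and 7.71 in arthritic pools and 8.35 and 8.21 in nonarthritic pools. The arthritic pools lay on either side of both nonarthritic pools, more than 2-fold apart, and the log2 fold change was 0.05 ± 0.35 (95% interval -0.75 to 0.84). It changed sign to -0.57 without arthritic pool 1. Tnfrsf22 read 8.80 and 8.70 in arthritic pools, against 8.21 and 8.32 in nonarthritic pools, without overlap (log2 fold change 0.49 ± 0.16, adjusted p = 0.0781, and 0.0493 when dim genes were left out). Tnfrsf26, a relative of these decoys with no settled ligand, read 8.10 and 7.99 in arthritic and 7.18 and 7.75 in nonarthritic pools (log2 fold change 0.58 ± 0.21, adjusted p = 0.109). Tnfrsf22, Tnfrsf23 and Tnfrsf26 are tandem copies, so probes of one may read another. The Tnfrsf23 call was lost without nonarthritic pool 2 (adjusted p = 0.0601) or arthritic pool 2 (0.0571). That of Tnfrsf10b was lost without nonarthritic pool 2 (0.104), arthritic pool 1 (0.143) or arthritic pool 2 (0.148).

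The other death domain receptors did not pass. Fas, which starts caspase-driven death, read 8.46 and 8.79 in arthritic pools and 8.37 and 8.33 in nonarthritic pools (log2 fold change 0.28 ± 0.17, adjusted p = 0.351). Tnfrsf21, death receptor 6, read 10.68 and 10.39 in arthritic pools and 10.25 and 10.02 in nonarthritic pools (0.40 ± 0.18, adjusted p = 0.184). In both genes the arthritic pools lay above the nonarthritic pools. Fasl, the ligand of Fas on cytotoxic lymphocytes, overlapped between groups at 6.39 and 6.29 in arthritic and 6.19 and 6.50 in nonarthritic pools, and was not shown to be above background in either.

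**Figure D2:**
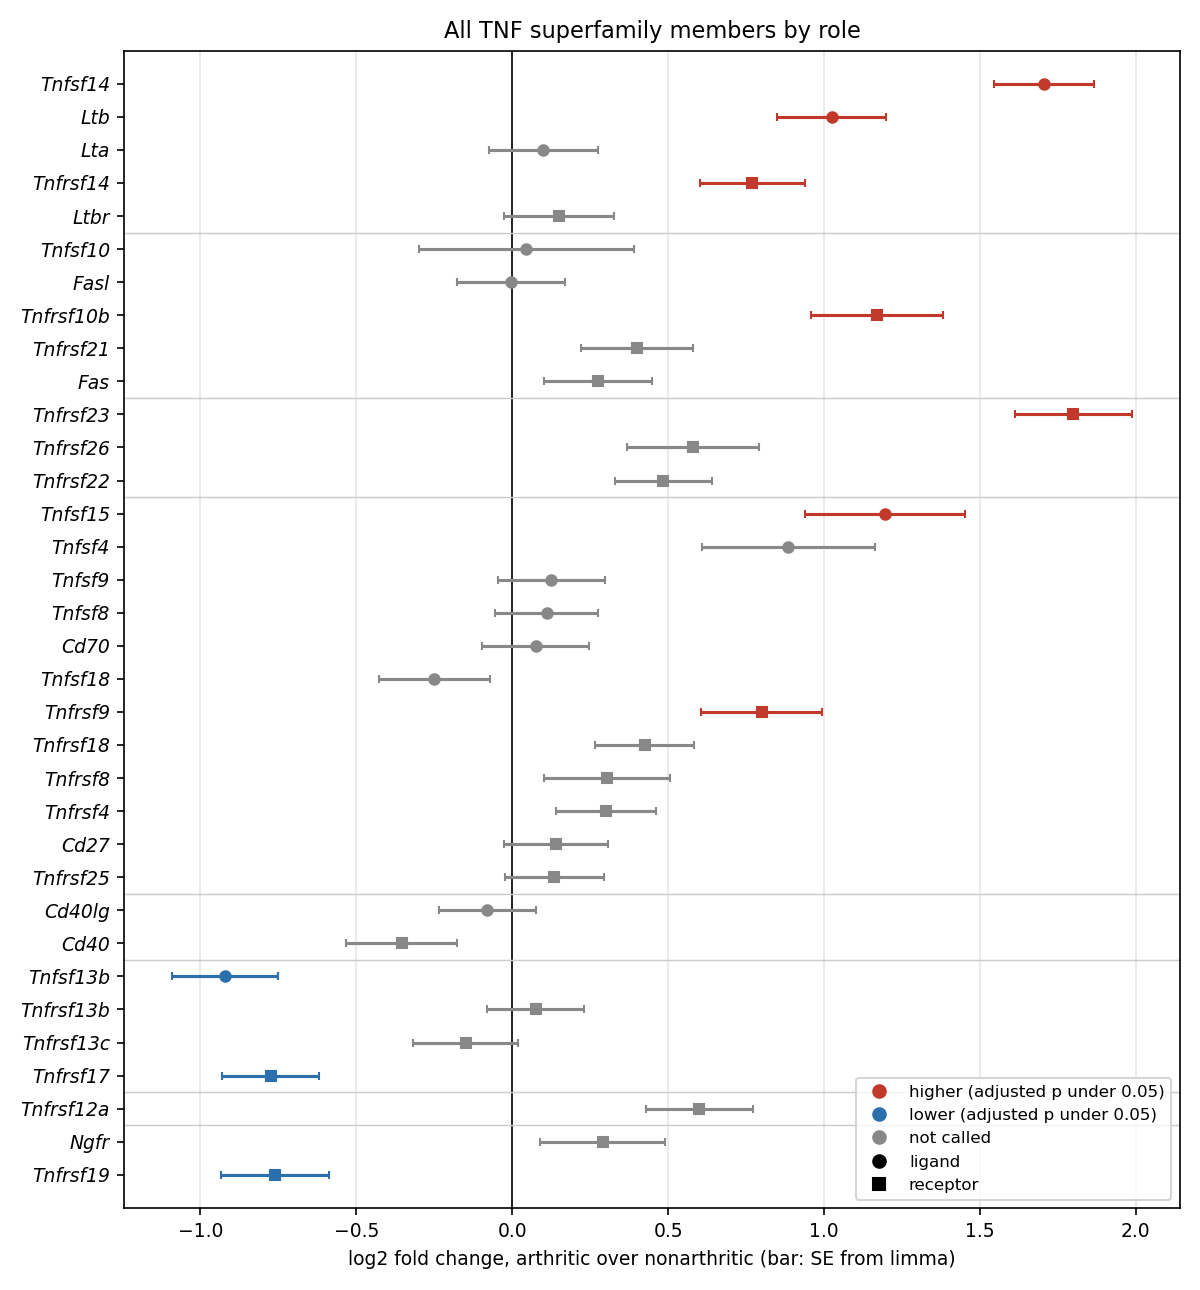
Log2 fold change of arthritic over nonarthritic synovium for all 34 members, grouped by role, with SE bars from limma; circles are ligands and squares receptors. Red marks the 7 genes that rose and blue the 3 that fell; the highest value is Tnfrsf23 at 1.80 and the lowest Tnfsf13b at -0.92.

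Among T cell costimulatory genes, 1 of 6 ligands and 1 of 6 receptors rose. Tnfsf15, made by endothelial and myeloid cells, costimulates T cells through the death domain receptor Tnfrsf25. It read 9.26 and 8.48 in arthritic pools, against 7.80 and 7.55 in nonarthritic pools. The groups were apart, but the arthritic pools differed by 0.78, and the log2 fold change was 1.20 ± 0.26 (2.29-fold, adjusted p = 0.0177). Tnfrsf25 read 7.53 and 7.70 in arthritic and 7.50 and 7.46 in nonarthritic pools (log2 fold change 0.14 ± 0.16, adjusted p = 0.646). Endothelial markers, of which Kdr and Tie1 rose among 8 and 4 had negative changes, with a median log2 fold change of -0.02, summed to 12300 to 15147 in arthritic pools and 12043 to 12476 in nonarthritic pools. The dendritic cell sum was 4272 to 5276 in arthritic and 2990 to 3409 in nonarthritic pools. The macrophage sum was 29796 to 29883 in arthritic and 23529 to 25632 in nonarthritic pools. Such sums weigh the brightest genes most. Among 6 dendritic cell markers that was Cd209a, which did not pass (log2 fold change 0.74, limma adjusted p = 0.0532). Of those 6, 5 had positive changes and 1 a negative one. Of 8 macrophage markers, 5 had positive changes and 3 negative ones: Csf1r, Mertk and C1qb, from -0.11 to -0.015. Arthritic pool 1, where Tnfsf15 was higher, had the higher endothelial, muscle and adipocyte sums of the arthritic pools. It had the lower dendritic cell and neutrophil sums. With 2 pools, a shared order was not read as a link. The part of these cells in the result was not tested.

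Tnfrsf9, a receptor induced on activated T cells and NK cells, read 8.36 and 8.47 in arthritic pools and 7.38 and 7.85 in nonarthritic pools. Both arthritic pools were above both nonarthritic pools, and the gene rose 1.74-fold (log2 fold change 0.80 ± 0.19, adjusted p = 0.0291). Its ligand Tnfsf9, found on antigen-presenting cells, read 8.33 in each arthritic pool and 8.36 and 8.05 in the nonarthritic pools, which overlap (adjusted p = 0.701). Leaving out any pool ended the calls of Tnfsf15 (adjusted p 0.0649 to 0.235) and Tnfrsf9 (0.0809 to 0.237).

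The other 5 receptors of this group did not pass. Tnfrsf18, which is high on regulatory T cells, read 7.38 and 7.55 in arthritic pools and 7.06 and 7.02 in nonarthritic pools (log2 fold change 0.43 ± 0.16, adjusted p = 0.117, and 0.0488 with quantile normalization again). The nonarthritic means of Tnfrsf18 and Tnfrsf8 lay below the background percentile. Tnfrsf4, carried by activated and regulatory T cells, read 7.82 and 8.01 in arthritic pools, against 7.57 and 7.66 in nonarthritic pools (0.30 ± 0.16, adjusted p = 0.268). Of 5 regulatory T cell markers, Foxp3 rose, with a log2 fold change of 0.61, and the other 4 did not pass. Il2ra and Ctla4 had 0.27 and 0.185, and Ikzf2 and Il10 had -0.20 and -0.025. Signals of 2 of the 5, Ctla4 and Il10, were below the background percentiles in both groups. Tnfrsf8, another receptor of activated lymphocytes, read 6.72 and 7.10 in arthritic and 6.42 and 6.79 in nonarthritic pools, which overlap (0.31 ± 0.20). Cd27, a receptor of naive and memory lymphocytes, also overlapped, at 6.27 and 6.51 in arthritic and 6.19 and 6.31 in nonarthritic pools, and was not shown to be above background in either group.

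Of their ligands, Tnfsf4 had the largest change without a call. It read 6.74 and 6.53 in arthritic pools and 5.30 and 6.20 in nonarthritic pools (log2 fold change 0.89 ± 0.28, adjusted p = 0.0701, and 0.0258 with arrays centred on their medians). Tnfsf4 is a costimulatory ligand of antigen-presenting cells. The nonarthritic pools were 0.90 apart, and neither group was shown to be above background. Tnfsf18, Tnfsf8 and Cd70, the ligands of Tnfrsf18, Tnfrsf8 and Cd27, had log2 fold changes of -0.25, 0.11 and 0.08, and their pools overlapped between groups or met at the same value. Tnfsf18 and Cd70 were below the background percentile in both groups.

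CD40, by which helper T cells activate B cells and macrophages, showed no call for ligand or receptor. Cd40 read 8.52 and 8.75 in arthritic pools and 9.13 and 8.85 in nonarthritic pools; the arthritic pools were the lower ones (log2 fold change -0.36 ± 0.18, adjusted p = 0.233, 95% interval -0.77 to 0.06). Cd40lg, the ligand on helper T cells, read 4.52 and 4.63 in arthritic pools and 4.67 and 4.64 in nonarthritic pools. Those signals lay far below the background percentiles of 6.83 in arthritic and 7.08 in nonarthritic synovium.

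**Figure D3:**
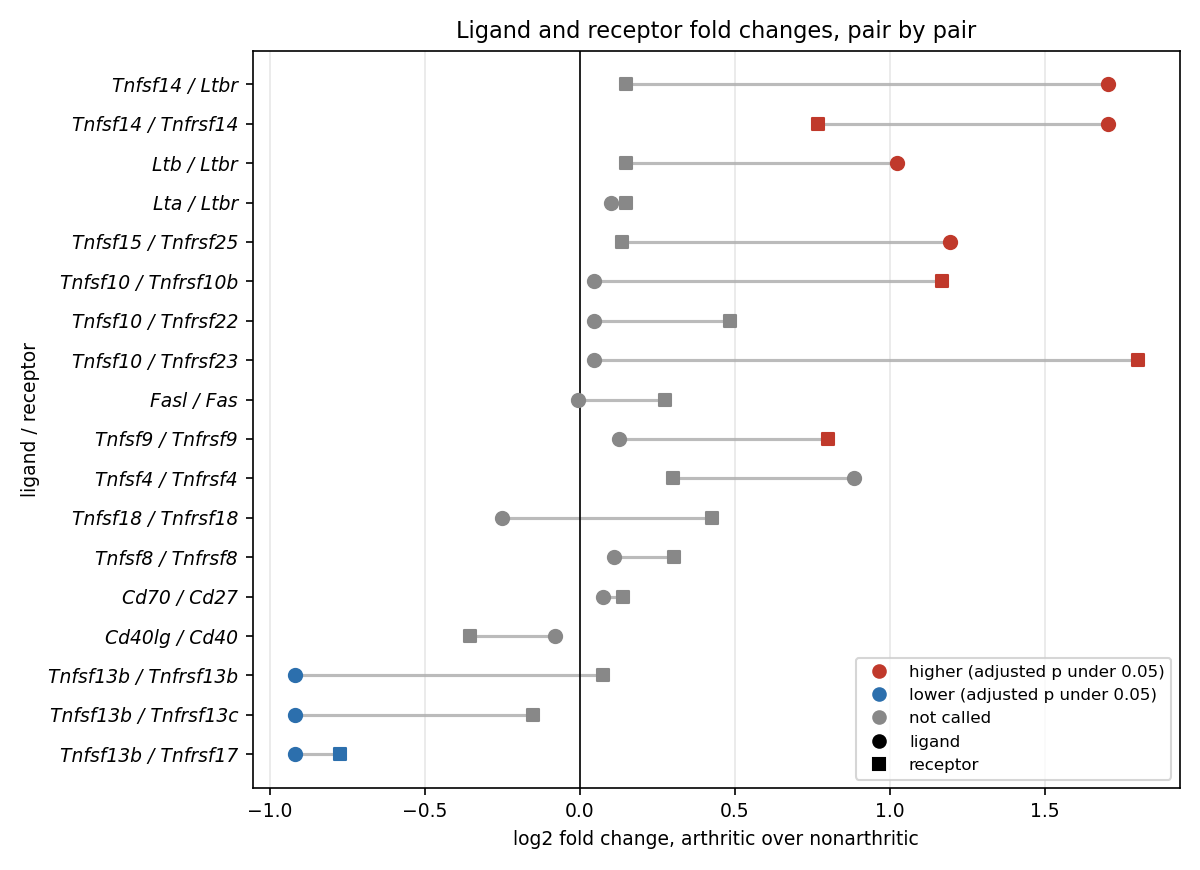
Log2 fold changes, arthritic over nonarthritic, of the ligand (circle) and receptor (square) of each of 18 known pairs, with colours for calls. Both partners rose in 1 pair, Tnfsf14 with Tnfrsf14, both fell in 1 pair, Tnfsf13b with Tnfrsf17, and 8 pairs had 1 called partner; genes that recur in several pairs are drawn each time.

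In the B cell survival group the ligand and 1 of 3 receptors fell. BAFF, encoded by Tnfsf13b and made by myeloid and stromal cells, keeps B cells alive through Tnfrsf13c and also binds Tnfrsf13b and Tnfrsf17. Tnfsf13b read 8.51 and 8.22 in arthritic pools, against 9.25 and 9.32 in nonarthritic pools. Both arthritic pools were lower, and the gene was 1.89-fold lower (log2 fold change -0.92 ± 0.17, adjusted p = 0.00974). Tnfrsf17, the receptor of plasma cells, read 6.03 and 6.11 in arthritic pools and 6.90 and 6.79 in nonarthritic pools. It fell by 0.78 ± 0.16 on the log2 scale (adjusted p = 0.0141), but both means were below the background percentiles, so the size of this fall is uncertain and it was not tested when dim genes were left out.

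The other receptors of BAFF did not pass. Tnfrsf13c, the main BAFF receptor of B cells, read 7.99 and 8.27 in arthritic pools and 8.28 in each nonarthritic pool (log2 fold change -0.15 ± 0.17, adjusted p = 0.626). Tnfrsf13b, on activated B cells, read 6.65 and 6.59 in arthritic and 6.49 and 6.60 in nonarthritic pools and was not shown to be above background in either group. Leaving out any pool ended the calls of Tnfsf13b (adjusted p 0.0667 to 0.135) and Tnfrsf17 (0.0894 to 0.127).

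Of 7 B cell markers, Ms4a1, Cd79a and Fcer2a fell and the other 4 did not pass; Pax5, the B cell identity factor, had a log2 fold change of -0.20. The arthritic means of the 3 that fell lay below the background percentile, as did the nonarthritic mean of Fcer2a, so the sizes of these falls are uncertain. The summed signal of all 7 markers was 799 to 854 in arthritic pools and 1094 to 1308 in nonarthritic pools. Of the 7, 2 were below the background percentiles in both groups. Of 7 plasma cell markers 3 rose and 1 fell: Sdc1 and Prdm1 had log2 fold changes of 1.16 and 1.02, Derl3 also rose, and Irf4, which macrophages and dendritic cells also use, had -1.82. Sdc1 and Prdm1 are also made by other cells. The plasma cell sum was 1686 to 1755 in arthritic pools and 1525 to 1555 in nonarthritic pools. Without Sdc1 its direction turned, to 910 to 1060 in arthritic and 1143 to 1273 in nonarthritic pools. That sum still holds Irf4, which read 7.25 and 7.35 in arthritic pools and 9.04 and 9.19 in nonarthritic pools. A sum without Irf4 as well was not made, so no direction for plasma cells was read from these sums. As given above, the macrophage and neutrophil sums were higher in arthritic pools, and the muscle and adipocyte sums were lower. Of the 8 macrophage markers, 5 had positive and 3 negative changes. The part of B lineage cells or of any of these other cells in the falls of Tnfsf13b and Tnfrsf17 was not tested.

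Tnfrsf12a, or Fn14, the receptor for the ligand TWEAK that is induced on injured and inflamed stromal cells, lay at the edge of the threshold. It read 9.51 and 9.64 in arthritic pools and 9.12 and 8.83 in nonarthritic pools, without overlap. The log2 fold change was 0.60 ± 0.17 (adjusted p = 0.0524), and the gene passed with a trended prior (0.0426), with arrays centred on their medians (0.0362) and with dim genes left out (0.0306). It did not pass with quantile normalization again (0.0589), with averaged probe sets (0.0518) or without any of the 4 pools in turn (0.0889 to 0.283).

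Tnfrsf19, or TROY, an orphan-type receptor of epithelial, neural and mesenchymal progenitors, fell. It read 6.91 and 7.23 in arthritic pools and 7.86 and 7.80 in nonarthritic pools, and was 1.69-fold lower (log2 fold change -0.76 ± 0.17, adjusted p = 0.0227). Its arthritic mean, 7.07, was not far above 6.83, the background percentile of that group. Leaving out any pool ended the call (adjusted p 0.105 to 0.168). Ngfr, the p75 neurotrophin receptor, had overlapping pools at 7.89 and 7.65 in arthritic and 7.71 and 7.25 in nonarthritic synovium (0.29 ± 0.20, adjusted p = 0.397). Of 5 Schwann cell markers, a cell type that carries Ngfr, 4 fell, among them Cdh19 by 2.39, S100b by 1.90 and Mbp by 0.92 on the log2 scale. The arthritic mean of Cdh19, 5.59, lay below the background percentile of that group. The summed signal of the 5 markers was 1072 to 1152 in arthritic pools and 2253 to 2541 in nonarthritic pools. The muscle and adipocyte sums given above were lower too. The part of these cells in the Ngfr and Tnfrsf19 values was not tested.

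Many family genes lie close together in the genome, and called genes had neighbours that did not pass. The RefSeq table of GRCm38.p6 places Tnfrsf26, Tnfrsf22 and Tnfrsf23 next to each other on chromosome 7. Taking each arthritic pool against each nonarthritic pool, the log2 differences ran from 1.56 to 2.04 for Tnfrsf23, from 0.38 to 0.59 for Tnfrsf22 and from 0.24 to 0.92 for Tnfrsf26. On chromosome 17, where Tnfsf9, Cd70 and Tnfsf14 are neighbours, those of Tnfsf14 ran from 1.59 to 1.82, those of Cd70 from -0.15 to 0.30 and those of Tnfsf9 from -0.03 to 0.28. The ranges of Tnfrsf23 and Tnfsf14 did not touch those of their neighbours.

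Ltb and Lta, which flank Tnf on the same chromosome, had differences of 0.80 to 1.25 and -0.14 to 0.34. Tnfsf15 and Tnfsf8, adjacent on chromosome 4, had differences of 0.68 to 1.71 and -0.06 to 0.28. On chromosome 1, Tnfsf4 ran from 0.33 to 1.44, against -0.50 to 0.00 for Tnfsf18 and -0.21 to 0.20 for Fasl. Tnfrsf4 and Tnfrsf18 on chromosome 4 had similar ranges, 0.16 to 0.44 and 0.32 to 0.53, and so did Cd27 and Ltbr on chromosome 6, at -0.04 to 0.32 and -0.10 to 0.40. The difference in fold change between neighbours was not tested.

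**Figure D4:**
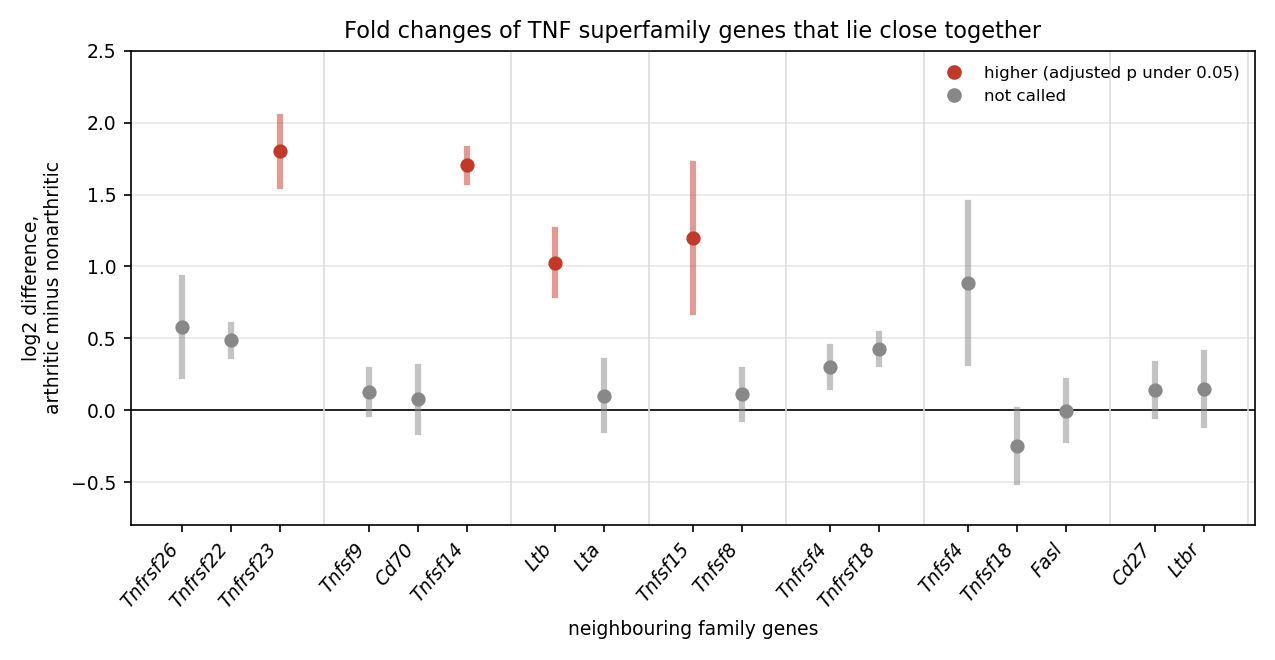
Log2 fold change (point) and the lowest to highest difference of an arthritic minus a nonarthritic pool (bar) for family genes that lie close together, with vertical lines between clusters. In the first 4 clusters 1 gene rose (red) and its neighbours did not pass (grey).

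Genes that carry signals from these receptors were taken from lists of adaptors, of the noncanonical NF-kappa-B route that Ltbr, Tnfrsf12a, Cd40 and Tnfrsf13c use, and of death receptor signalling. Of 10 TRAF adaptors and partners 3 rose, and the other 7 had log2 fold changes from -0.37 to 0.25. Traf4 read 9.77 and 9.78 in arthritic pools and 8.95 and 8.57 in nonarthritic pools (log2 fold change 1.02 ± 0.18, adjusted p = 0.00824). Traf1, an NF-kappa-B target, and Traf2, the adaptor shared by most TRAF-binding receptors, rose 1.83-fold and 1.85-fold (adjusted p = 0.0177 and 0.0115). Of 6 noncanonical genes Nfkb2 rose, from which the NF-kappa-B subunit of that route is processed: it read 9.99 and 9.97 in arthritic pools and 8.68 and 8.45 in nonarthritic pools (log2 fold change 1.42 ± 0.16, adjusted p = 0.00123). Its partner Relb and the kinase gene Map3k14 had 0.60 ± 0.18 (adjusted p = 0.0611) and 0.45 ± 0.16 (0.107).

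Of 11 death signalling genes 1 rose. Ripk3, the kinase of necroptosis, read 9.81 and 9.47 in arthritic pools, against 7.61 and 7.19 in nonarthritic pools, a 4.72-fold rise (log2 fold change 2.24 ± 0.20, adjusted p = 0.000469). The adaptors Fadd and Tradd, and Mlkl, which Ripk3 activates, had log2 fold changes of 0.59, 0.57 and 0.59. Their limma adjusted p ran from 0.106 to 0.112, and Casp8 had a log2 fold change of 0.39 (adjusted p = 0.151). Xiap and Cflar, the 2 genes of this list with negative changes, had -0.37 and -0.08 without passing. Of 7 binding partners outside the family 3 fell, all of them neurotrophin receptors or their helper: Ntrk3 was 4.46-fold lower (adjusted p = 0.000218), Sort1, which pairs with Ngfr, 2.15-fold lower (0.00435) and Ntrk2 2.06-fold lower (0.00446). Averaged over its probe sets, Sort1 had a log2 fold change of -0.62 (adjusted p = 0.0302), against -1.11 for its brightest one. Ntrk3 read 7.50 and 7.33 in arthritic pools and 9.59 and 9.56 in nonarthritic pools, with no overlap. The Schwann cell, muscle and adipocyte sums given above were lower too, and the part of these cells in the 3 falls was not tested. Btla and Cd160, which bind HVEM on lymphocytes, had log2 fold changes of 0.46 and -0.24 (limma adjusted p = 0.0951 and 0.369). Signals of 3 of the 7 partners, Cd160 among them, were below the background percentiles in both groups. The nonarthritic mean of Btla, 6.98, was below 7.08, the percentile of that group.

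Over these lists and the ectodysplasin and RELT genes, 40 genes in all, 5 rose and 3 fell with all arrays. These are 12.5% and 7.5% of the 40, near the 8.72% and 6.62% of all genes. Without arthritic pool 1, 1 rose and 1 fell; without arthritic pool 2, 0 rose by limma's adjusted p, with 10 positive at an unadjusted p under 0.05, and 1 fell. Without nonarthritic pool 1, 4 rose and 2 fell, and without nonarthritic pool 2, 1 rose and 1 fell. Ntrk3 fell in all 4 of these fits (adjusted p 0.0209 to 0.0495), and Ripk3 rose in 3 of them, with an adjusted p of 0.0552 without arthritic pool 2. Nfkb2 rose without nonarthritic pool 1 (0.0292), and was lost in the other 3 fits (0.0545 to 0.0713). Traf1 and Traf4 likewise rose without nonarthritic pool 1 (0.0475 and 0.0393) and had adjusted p from 0.108 to 0.191 in the others, and Traf2 was lost in all 4 (0.0522 to 0.135). Ntrk2 fell without nonarthritic pool 1 (0.0493) and was lost in the others (0.0808 to 0.0945), and Sort1 was lost in all 4 (0.053 to 0.0986).

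**Figure D5:**
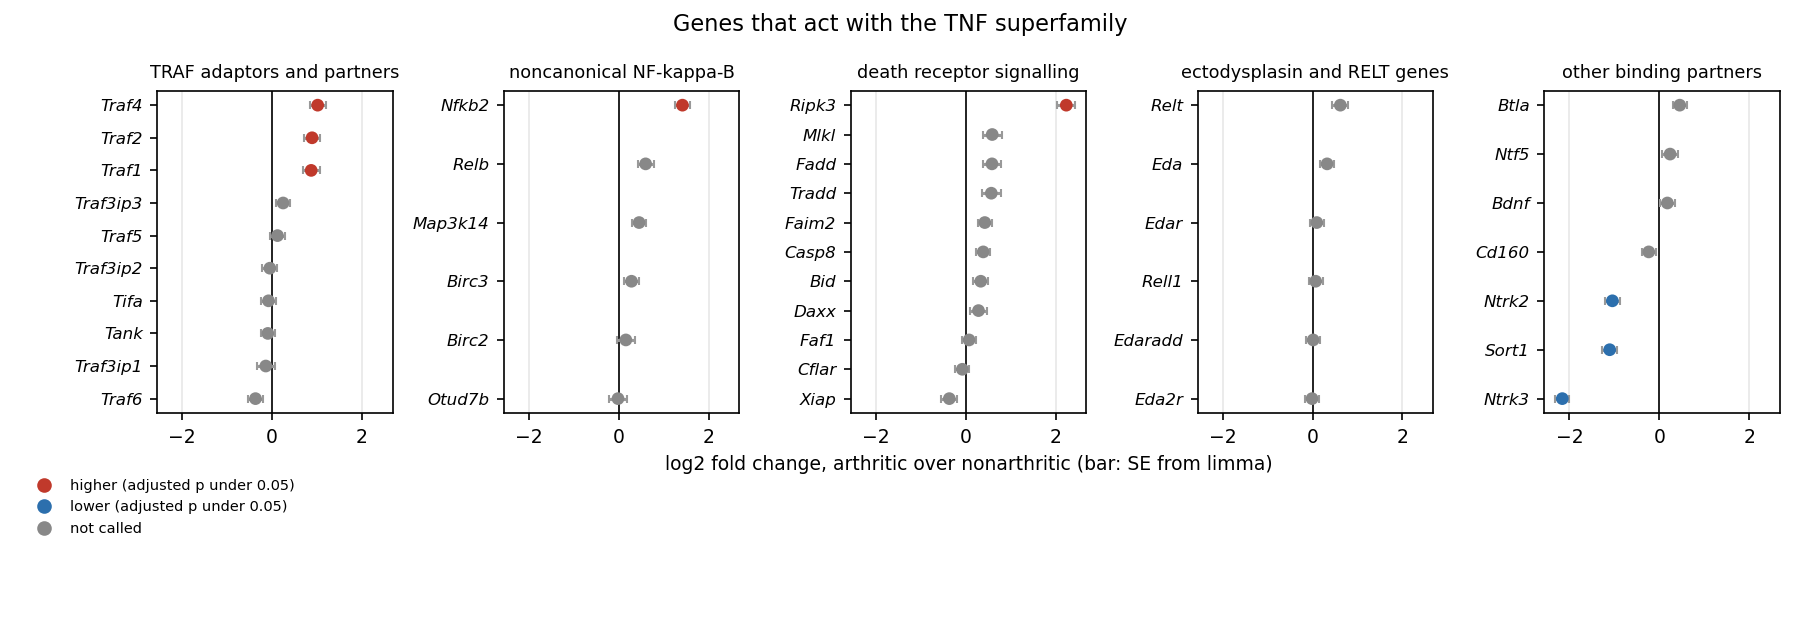
Log2 fold change, arthritic over nonarthritic, with SE bars from limma, for genes that act with the TNF superfamily, 1 panel per list. Ripk3 at 2.24 and Nfkb2 at 1.42 lead the rises (red), and Ntrk3 at -2.16 leads the falls (blue).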

How the data were processed

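Total RNA of 4 pools was measured on 4 Affymetrix MoGene 2.0 ST arrays, with 500 ng of RNA labelled for each. The deposited log2 signals, 1 per probe set and array, were made by the authors with RMA, Affymetrix Power Tools and Affymetrix Expression Console, per the submitters' processing notes, which give no versions. Values ran from 2.89 to 14.27, from which their scale was taken to be log2. The number of arrays limits the precision.

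Of 41345 probe sets, 23521 had 1 gene symbol, 1814 several and 16010 none in the platform table. Each gene kept its brightest single-symbol probe set, by the mean of the 4 arrays, which left 22180 genes. Arthritic was compared with nonarthritic synovium with limma 3.58.1 in R 4.3.3 (constant prior, 2-sided, no block), with Benjamini-Hochberg adjustment over all genes and a threshold of 0.05; the script was tested on simulated data. Errors of fold changes are limma SE. There were 2 residual and 5.98 prior degrees of freedom. Nothing says whether pools were independent beyond the design text's word for them, biological replicates.

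No detection calls were used. Background was read from 1105 olfactory receptor genes: the 95th percentile of their means was 6.83 in arthritic and 7.08 in nonarthritic synovium. The members and lists were chosen with earlier results of these data known, and no list was tested as a list. By rule, every member may be named, and called genes of other lists with the largest changes, up to 4 each way for signalling lists and 3 for markers; uncalled genes of those lists, such as Relb, Fadd, Btla, Cd3e and Pax5, were chosen after their values were seen. Listed genes without a single-symbol probe set, such as Traf3, Chuk and Ripk1, were not analysed here.

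The alternatives were a trended and robust prior, quantile normalization again, centring arrays on their medians, a filter on dim genes, averaging probe sets, a block for pool number, and leaving out each pool. The marker sums without Sdc1 and without Cd4 were added after seeing the data. Motifs were searched in the 250 bases before RefSeq starts.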

Additional observations from a re-analysis of the deposited data

How the results depend on the processing

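The family counts of 7 rising and 3 falling genes became 6 to 9 rising and 2 or 3 falling under the 6 alternatives that keep all pools. The main 10 calls were all among them except under the block for pool number, which lost Tnfrsf9 (adjusted p = 0.053) and Tnfrsf19 (0.059), and under the dim-gene filter, which removed Tnfrsf17 before the test. Leaving out 1 pool gave 0 to 3 rising members and 0 falling members, though 3 or 4 members had a negative change with an unadjusted p under 0.05 in limma. In the same fits 47 to 637 of all genes rose and 105 to 584 fell, against 1933 and 1469 with all pools, and 0 to 4 of the 40 signalling and partner genes rose and 1 or 2 fell. Under the 6 alternatives that keep all pools, 4 to 7 of those 40 rose and 3 fell. These fits without a pool have fewer samples, and the lone pool is assumed to vary like the other group. With pool number as a replicate block, 1216 of all genes rose, Traf1 lost its call (adjusted p = 0.0584) and Tnfrsf12a had 0.0953. Pool numbers are shared by the groups, but the labels tie them to nothing: the pool 1 minus pool 2 differences of the groups correlated at 0.18 across genes. Centring arrays on their medians put the median of all genes at 0.1 on the log2 scale, against 0.005, and 2314 then rose and 1134 fell. The uncalled genes that changed sign were Cd40lg (0.076 with quantile normalization again and 0.015 with centring) and Fasl (0.104 and 0.09 with those). With 1 pool left out, sign changes were seen for Fasl (-0.16 to 0.15), Cd70 (-0.05 to 0.2), Lta (-0.04 to 0.24), Tnfsf9 (-0.03 to 0.28) and Tnfsf10 (-0.57 to 0.66). The cause was not tested. Signal over background limits 8 members, which lay below the olfactory receptor percentiles in both groups.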

Other observations

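The ligands TWEAK and APRIL, encoded by Tnfsf12 and Tnfsf13, are read here by 1 probe set shared with their readthrough gene Tnfsfm13, so they are no members of the symbol rule and have no value of their own. That probe set read 8.89 and 8.81 in arthritic pools and 9.19 and 9.10 in nonarthritic pools. Both arthritic pools were lower, by 0.30, with means of 8.85 ± 0.06 in arthritic and 9.15 ± 0.06 in nonarthritic pools (SD, n = 2 pools each), and the probe set was not in the gene test. TWEAK is the ligand of Tnfrsf12a, and APRIL binds Tnfrsf17. A second probe set with Tnfrsf18 in its name, shared with Gm16008, read 7.61 and 7.37 in arthritic pools and 7.56 and 7.58 in nonarthritic pools, which overlap.

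Of the family genes that the symbol rule leaves out, the ectodysplasin ligand Eda, its receptors Edar and Eda2r, their adaptor Edaradd, and Relt with its relative Rell1 were measured, and all 6 missed the threshold. Relt, a TNF receptor family gene of blood cells, read 7.93 and 8.27 in arthritic pools and 7.53 and 7.43 in nonarthritic pools, without overlap (log2 fold change 0.62 ± 0.18, limma adjusted p = 0.0511), and passed under 4 of the 6 alternatives that keep all pools. Eda had 0.33 ± 0.16 (adjusted p = 0.212), and the other 4 lay between -0.01 and 0.10.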
